A study of Mus musculus with 6 samples.

Results

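The complement genes described here are C3, C4b, C1ra, C1s1, Serping1, Cfb, Cfd and Cfi, 8 of the 57180 genes in the count table, chosen by name as complement genes that mesenchymal cells express. All 8 were found by their Ensembl identifiers. They were followed in calvaria-derived mouse cells, grown from the skull vault and kept in a medium that drives bone formation, with ascorbate and β-glycerophosphate added. The 3 wt libraries are from C57BL/6 mice. The 3 gld libraries are from the strain B6Smn.C3-Faslgld/J, homozygous for the gld point mutation of Fasl, the gene of the death receptor ligand FasL, and the labels call them FasL KO. The "C3" in that strain name refers to the C3H donor strain and not to the complement gene. No label of these 6 libraries names added FasL, and gld cells stimulated with recombinant FasL were not analysed here. Age and sex of the mice are not given, nor whether a group's libraries come from separate mice or dishes. The p-values thus cover no more than the spread between these 6 libraries, part of which may be technical.

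Complement is a cascade of plasma proteins that tags surfaces and cells for removal. In the classical pathway C1q binds its target, the protease C1r activates C1s, and C1s cleaves C4 and C2 to form an enzyme that cleaves C3; the C1 inhibitor blocks C1r and C1s. In the alternative pathway factor D cleaves factor B on C3b, which makes more C3-cleaving enzyme, and factor I ends the process by cutting C3b and C4b. The liver makes most of the plasma supply, but fibroblasts and bone-forming cells also make C3, C1r, C1s and C1 inhibitor, and C3 from marrow stromal cells has been tied to osteoclast formation.

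The libraries held 2011173 to 3105322 counts in wt and 4048258 to 5245546 in gld. They were made with a kit that reads the end of each transcript, so counts do not grow with transcript length. The labels mention no molecular identifiers, so counts are reads and not molecules, and the bounds given below rest on read counts. Levels are given as CPM, counts scaled to a common library total after TMM normalization. Of the osteoblast markers, Col1a1 and Col1a2, the chains of collagen I, were abundant, while Bglap and Spp1, defining markers of mature osteoblasts, had 1 and 4 counts over all 6 libraries. Other late markers of the list were low but counted: Ibsp had 100 counts, Dmp1 73 and Phex 91, nearly all in gld. Bglap2, a near copy of Bglap, had 41, all in gld. Among protein-coding genes, 81.4% of those with under 10% of their last 300 exonic bases in a single annotated transcript had under 30 counts in all, against 65.9% of those with 10% to under 99% and 51.6% of those with at least 99%. A gene at 0 is therefore called listed at 0 here, and not absent.

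The 250 bases before the RefSeq start of C3 and of C1ra, the members with a clear difference for which RefSeq gave a promoter, are shown because the text returns to both genes. They are from GRCm38.p6, 5′ to 3′ on the gene's strand, C3 at chr17:57228137-57228386 on the minus strand and C1ra at chr6:124512371-124512620 on the plus strand. The GENCODE annotation starts C1ra earlier, at 124512405. Most of the C1ra stretch, with its marked matches, thus lies inside the gene as GENCODE draws it, and which start these cells use was not tested. Capitals mark matches to TTNNGNAA on either strand, a short form of the site bound by C/EBP factors.
C3: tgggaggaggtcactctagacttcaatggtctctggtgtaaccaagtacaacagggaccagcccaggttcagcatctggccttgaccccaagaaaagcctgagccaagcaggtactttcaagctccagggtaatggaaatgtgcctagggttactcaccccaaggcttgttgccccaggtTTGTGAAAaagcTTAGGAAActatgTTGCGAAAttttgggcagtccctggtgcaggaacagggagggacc
C1ra: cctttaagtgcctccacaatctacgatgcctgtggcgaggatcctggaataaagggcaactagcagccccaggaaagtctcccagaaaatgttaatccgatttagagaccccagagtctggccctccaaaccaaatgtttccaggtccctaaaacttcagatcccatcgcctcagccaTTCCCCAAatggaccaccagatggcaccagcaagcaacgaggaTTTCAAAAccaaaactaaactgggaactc

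The C3 promoter held 3 such matches, the first starting 70 bases and the last ending 38 bases before the start, and the C1ra promoter held 2. The motif is common: 36.9% of the first listed promoters of 27025 genes hold at least 1 match. Neither promoter held a match to the STAT motif TTCNNNGAA (7.18% of promoters), the NF-kB consensus (7.01%) or the interferon response motif ISRE (3.04%), on either strand; no match overlapped another motif. A match describes letters and is not a shown site.

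Transcripts of C3, of the classical pathway protease gene C1ra and of the C1 inhibitor gene Serping1 were higher in gld than in wt, by unequal amounts. C3 rose about 7.25-fold, C1ra about 2.00-fold and Serping1 about 1.35-fold as ratios of mean CPM. These are the 3 members with enough counts to be tested, and all 3 were called higher by the quasi-likelihood test of edgeR at an adjusted p of 0.05, with groups that did not overlap. In the same test 17.4% of the 8692 tested genes were called, 9.74% as higher and 7.69% as lower in gld, and the groups were apart in 33.3%. Of the other members, C4b, C1s1 and Cfi had counts too low to test, and Cfb and Cfd were listed at 0 in every library.

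C3, the protein on which all complement pathways converge, lies on chromosome 17 (GRCm38, 57203970 to 57228136, minus strand). The wt libraries 1, 2 and 3 held 126, 205 and 162 of its counts, and the gld libraries 1, 2 and 3 held 1762, 1598 and 1947. On the CPM scale wt stood at 59.2, 64.8 and 49.7 and gld at 440, 421 and 400. Every gld library stood far above every wt library, and the spread within a group was small beside the gap. The wt mean was 57.9 ± 7.62 CPM and the gld mean 420 ± 19.96 CPM (SD, n = 3), with a log2 fold change of 2.86 ± 0.15 (SE) and an edgeR adjusted p = 7.63e-09. Of the 847 genes called higher, 279 had a larger fold change.

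**Figure D1:**
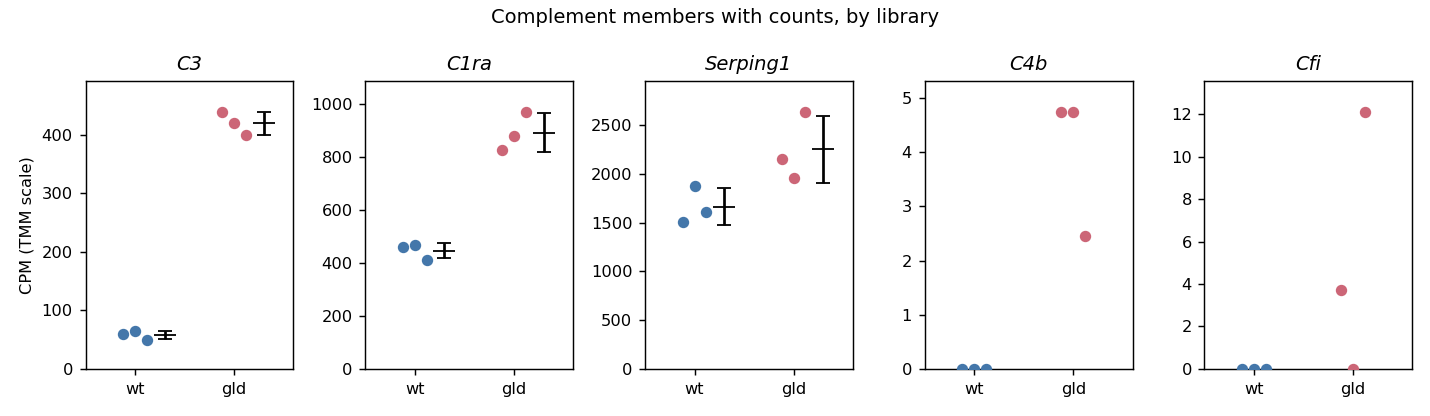
CPM on the TMM scale in each library for the 5 complement genes with more than a few counts; blue points are wt, red points gld, and black bars (tested genes only) are the mean ± SD of 3 libraries. C3 goes from 57.9 to 420 CPM without overlap, C1ra and Serping1 differ less, and Cfi is at 0 in 1 gld library.

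C1ra encodes the protease that starts the classical cascade. It lies on chromosome 6 (124512405 to 124523443, plus strand) and its last 300 exonic bases lie in its only annotated transcript. In wt it stood at 461, 467 and 414 CPM, and in gld at 828, 882 and 972. All gld libraries were above all wt libraries. The means of 447 ± 29.4 and 894 ± 72.8 CPM (SD, n = 3) gave a log2 fold change of 1.00 ± 0.11 (SE) and an edgeR adjusted p = 1.62e-05.

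Serping1, which encodes the C1 inhibitor, the serpin that inactivates C1r and C1s, was the most heavily counted member (chromosome 2, 84765387 to 84775444, minus strand). Its wt levels were 1511, 1876 and 1605 CPM, and its gld levels 2155, 1961 and 2635. The groups did not overlap, but wt 2 and gld 2 lay close together. The means were 1664 ± 189 and 2251 ± 347 CPM (SD, n = 3), with a log2 fold change of 0.44 ± 0.12 (SE) and an edgeR adjusted p = 0.0221. It no longer passed when wt 1 (adjusted p = 0.106), wt 3 (0.0899), gld 1 (0.0543) or gld 3 (0.128) was left out, or with library size alone as the scaling (0.122). Under that scaling the median over all genes moved from 0.02 to −0.14. Such a change shifts all genes by nearly the same amount. The distance of Serping1 from the median, 0.42 under either scaling, was thus bound to stay and does not bear on the lost call.

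**Figure D2:**
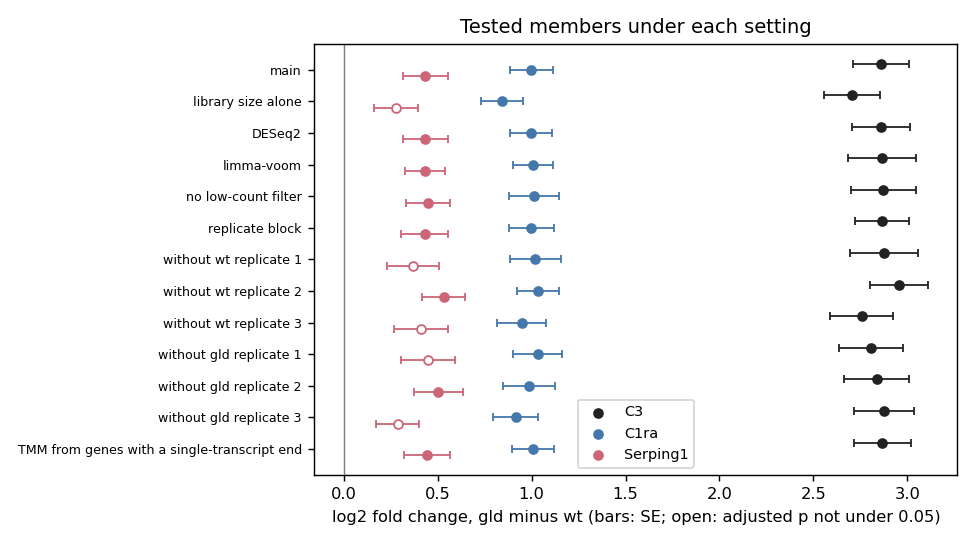
Log2 fold change (gld minus wt, bars are SE) of C3, C1ra and Serping1 in the main fit and under each other setting; open points did not pass an adjusted p of 0.05. C3 stays between 2.71 and 2.96, C1ra between 0.84 and 1.03, and Serping1 between 0.28 and 0.53 with 5 open points.

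The unequal differences changed the balance between the members within each library, a comparison that needs no scaling between libraries. Per 100 Serping1 counts there were 3.92, 3.45 and 3.10 C3 counts in wt and 20.4, 21.5 and 15.2 in gld. C1ra, the protease that Serping1's product inhibits, had 30.5, 24.9 and 25.8 counts per 100 of Serping1 in wt and 38.4, 45.0 and 36.9 in gld. Both ratios were higher in every gld library than in any wt library. Their means were 3.49 ± 0.41 against 19.0 ± 3.38 for C3 and 27.1 ± 3.01 against 40.1 ± 4.30 for C1ra (SD, n = 3). C3 also outpaced C1ra, with 12.9 ± 0.92 C3 counts per 100 of C1ra in wt and 47.3 ± 6.00 in gld (SD, n = 3). Of the summed level of all 8 members, which ran from 2032 to 2408 CPM in wt and from 3270 to 4022 in gld, C3 made up 2.67% ± 0.26 in wt and 11.9% ± 1.68 in gld, and Serping1 76.6% ± 1.94 and 62.8% ± 2.78 (SD, n = 3).

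**Figure D3:**
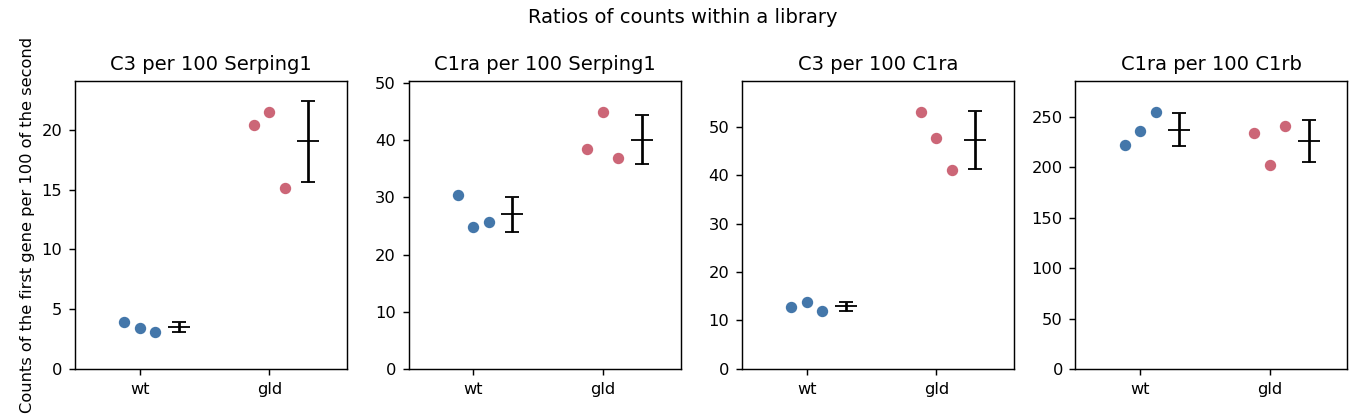
Counts of one gene per 100 counts of another in the same library; blue points are wt, red points gld, black bars the mean ± SD of 3 libraries. The C3 ratios and C1ra per Serping1 separate the groups, whereas C1ra per C1rb overlaps between them.

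Of the low members, C4b, the mouse C4 that C1s cleaves (chromosome 17, 34728380 to 34743882, minus strand), had no count in wt and 19, 18 and 12 counts in gld. Its mean of 3.98 CPM in gld is at least 11.3-fold higher than a floor of 3 counts over the wt group, a bound that leaves out the error of the gld mean and covers counting error only. Cfi, the gene of factor I (chromosome 3, 129835884 to 129875332, plus strand), had no count in wt and 15, 0 and 59 in gld. It therefore overlapped between the groups, and gld 3 alone held most of its counts. C1s1, the partner protease of C1r, had 1 count in wt and 3 in gld, too few to compare. Neither C4b nor Cfi passed the filter for low counts. Without that filter edgeR gave adjusted p = 0.0342 for C4b and adjusted p = 0.00694 for Cfi. That fit gave C3 an edgeR adjusted p = 3.47e-60, against 7.63e-09 in the main fit, at log2 fold changes of 2.87 and 2.86. Its p-values are therefore not comparable with those of the main fit, and the values for C4b and Cfi are not read as calls. Where leaving out a library let them into the test, C4b had an edgeR adjusted p = 0.0436 without gld 3 and from 0.0756 to 0.0919 without a wt library. Cfi had an edgeR adjusted p = 0.0177 without gld 2 and from 0.104 to 0.128 without a wt library. Both genes entered through their gld counts alone. The smallest values came without the gld library that held the fewest counts of that gene. These p-values therefore give no support for a difference.

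The members with few or no counts, Cfi aside, have ends that the annotation shares between transcripts or genes. The share of the last 300 bases in a single transcript was 0% for C4b and Cfb, 1% for C1s1 and 16% for Cfd, against 39.7% for Serping1, 67% for C3 and 100% for C1ra and Cfi. Of the 226 stretches of 75 bases in each end, the read length, 83 in C4b also occur in its near copy C4a, 26 in C1s1 occur in C1s2, and 198 in Cfb occur in the overlapping gene model Gm20547. No such stretch of C3, C1ra, Serping1, Cfd or Cfi occurs in another annotated gene. C4a, C1s2 and C2, the neighbours of C4b, C1s1 and Cfb in pathway and position, were likewise listed at 0. Cfd encodes adipsin, a product of fat cells, and the adipocyte genes Plin1, Cidec and Pparg were also listed at 0, while Adipoq had 1 count. Of that list 2 of 12 genes were tested: lipoprotein lipase (Lpl) fell by 2.32 ± 0.17 (SE, edgeR adjusted p = 2.13e-07), and Car3, a carbonic anhydrase gene with wt at 0, was higher in gld by at least 46.8-fold (edgeR adjusted p = 0.000215).

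The genes below were listed with earlier results of these data known, so their counts describe and do not test the pathway. In 4 lists of 50 other complement genes, 18 could be tested, of which 9 rose, 4 fell and 5 did not pass, and 23 were listed at 0. Their median log2 fold change was 0.73, against 0.02 for all genes tested. C1qc and C4bp, at 0 in wt, lie above that median at their bounds too, so placing them there could not move it.

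Among 15 other genes of the classical and lectin pathways, 5 were tested, and 4 rose. C1rb, the near copy of C1ra beside it on chromosome 6, rose by 1.07 ± 0.14 (SE, edgeR adjusted p = 6.17e-05). Its level went from 189 ± 24.1 to 397 ± 40.9 CPM (SD, n = 3). Of the 226 stretches of 75 bases in its end, 141 also occur in C1ra transcripts, so how reads were divided between the copies is uncertain. C1ra had 238 ± 16.7 counts per 100 of C1rb in wt and 226 ± 20.6 in gld (SD, n = 3), which overlap. The C1q chain genes C1qa, C1qb and C1qc, products mainly of macrophages, had 5, 2 and 0 counts over the wt libraries and no fewer than 334 in any gld library (edgeR adjusted p of at most 6.59e-07). With limma-voom C1qa was at an adjusted p = 0.0699. Masp1, a lectin pathway protease gene picked out once its value was known, fell by 1.05 ± 0.26 (SE, edgeR adjusted p = 0.0106). The C1r and C1q genes thus rose in the same libraries, and the lectin protease gene fell.

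Of 8 other alternative and terminal genes, 1 was tested. Cfp, which encodes properdin, the stabiliser of the alternative C3-cleaving enzyme, rose by 5.06 ± 0.72 (SE, edgeR adjusted p = 0.000137). Its wt libraries held 7, 1 and 1 counts and its gld libraries 107, 94 and 308. It was not past the threshold in limma-voom (adjusted p = 0.0530). The terminal genes C7, C8a, C8b, C8g and C9 were listed at 0.

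Regulators other than the members went mostly the other way. Of 16, 8 were tested, 1 rose, 3 fell and 4 did not pass, with a median of −0.52. Clu, which encodes clusterin, an inhibitor of the membrane attack complex, fell by 0.81 ± 0.10 (SE, edgeR adjusted p = 3.13e-05), from 2347 ± 73.8 to 1334 ± 125 CPM. Thbd, the gene of thrombomodulin, fell by 2.20 ± 0.13 (adjusted p = 2.70e-08), from 1204 ± 84.1 to 262 ± 40.6 CPM (SD, n = 3). Cd55, a membrane protein that takes apart the C3-cleaving enzyme, fell by 0.95 ± 0.28 (edgeR adjusted p = 0.0296), a call lost without wt 2 (0.126), wt 3 (0.106), gld 1 (0.0977) or gld 3 (0.105). C4bp, a cofactor of factor I, had no count in wt and 40, 41 and 35 in gld, at least 26.6-fold higher (edgeR adjusted p = 0.00145). In gld cultures the C3 transcript was thus higher while those of clusterin and thrombomodulin were lower.

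**Figure D4:**
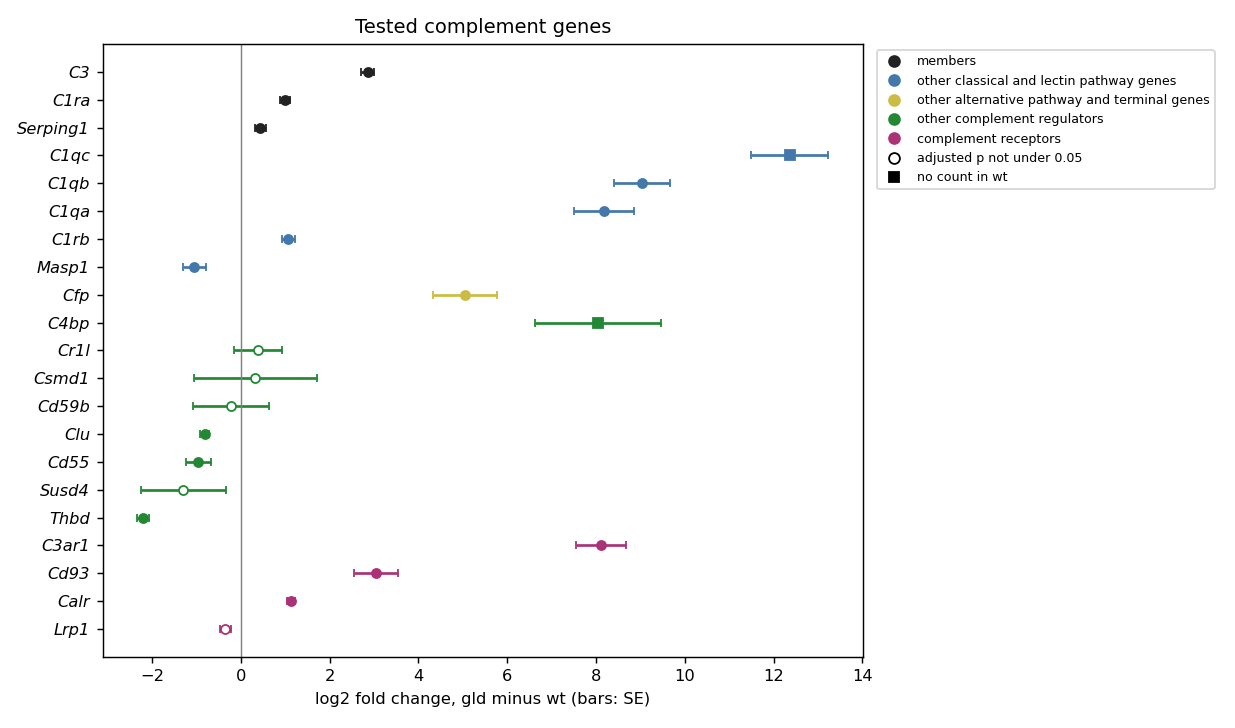
Log2 fold change (gld minus wt, bars are SE) of the 21 tested complement genes by role; filled points passed an adjusted p of 0.05, and squares mark genes without a count in wt, whose fitted value depends on the prior count. The tested members lie to the right of 0, whereas Clu, Cd55, Thbd and Masp1 lie to the left.

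Of 11 complement receptor genes, 4 were tested and 3 rose. C3ar1, the receptor for the C3a fragment, had 3, 1 and 0 counts in the wt libraries, against 447, 356 and 1050 in gld (log2 fold change 8.11 ± 0.57 (SE), edgeR adjusted p = 1.49e-07). Calr, calreticulin, a chaperone that also binds C1q, rose by 1.13 ± 0.09 (adjusted p = 7.47e-07), and Cd93 rose by 3.04 ± 0.49 (edgeR adjusted p = 0.000422). Lrp1, named after its value was seen, was at −0.35 ± 0.12 (SE, edgeR adjusted p = 0.0545).

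Macrophages also make complement proteins, C3 and properdin among them, and their markers were higher in the same 3 libraries. In bulk RNA, fewer cells of a type and less RNA per cell cannot be told apart. The summed level of 20 macrophage markers, C1q left out, was 3.29, 144 and 19.0 CPM in the wt libraries, against 2146, 3420 and 5960 CPM in the gld libraries. Most of that sum in every library was a single gene, Lyz2, at 1782, 2941 and 4984 CPM in gld 1, 2 and 3. Of the 20, 11 had a higher mean in gld and 9, among them the defining markers Csf1r, Adgre1 and Tyrobp, were listed at 0. All 8 that were tested rose, with a median of 6.45, or 6.30 when those at 0 in wt are placed at their bounds. They include Lyz2, lysozyme, at 47.1 ± 63.2 CPM in wt and 3236 ± 1621 in gld (edgeR adjusted p = 2.96e-05), Laptm5, a lysosomal membrane protein (adjusted p = 1.02e-06), and Marco, a scavenger receptor gene at 0 in wt and higher in gld by at least 218-fold (adjusted p = 2.46e-07). Cybb, a subunit of the phagocyte oxidase, rose by 6.41 ± 0.69 (edgeR adjusted p = 1.02e-05) but was not past in limma-voom (0.0757). Within gld the marker sum was highest in gld 3 and lowest in gld 1, and C3 stood at 440, 421 and 400 CPM in gld 1, 2 and 3. The source of the C3 transcripts was not tested. C1ra followed the order of the marker sum, and Serping1 was lowest in gld 2. The part of macrophage RNA in the C3, C1ra and Serping1 differences was not tested. Of 10 markers of liver cells, the main source of plasma complement, 8 were listed at 0, and the 1 tested, the transferrin gene Trf, fell by 1.57 ± 0.15 (SE, edgeR adjusted p = 3.48e-06). Of the cells that the cultures are meant to hold, 7 of 12 osteoblast markers were tested, 5 rose and 1 fell, and 9 of 12 fibroblast and mesenchymal markers were tested, 3 rose and 2 fell. Col1a1 rose by 1.83 ± 0.12, lumican (Lum), a proteoglycan of connective tissue, by 2.01 ± 0.11, and alkaline phosphatase (Alpl) fell by 2.20 ± 0.18 (SE, largest edgeR adjusted p = 7.97e-07). Neither of 2 tested endothelial markers of 10 passed, with Plvap at 2.43 ± 1.25 and Kdr at 1.51 ± 1.16 (SE, edgeR adjusted p = 0.232 and 0.469), nor did the 1 tested neutrophil marker of 10, Camp, at −0.87 ± 0.42 (edgeR adjusted p = 0.207; 0.0287 without gld 3).

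**Figure D5:**
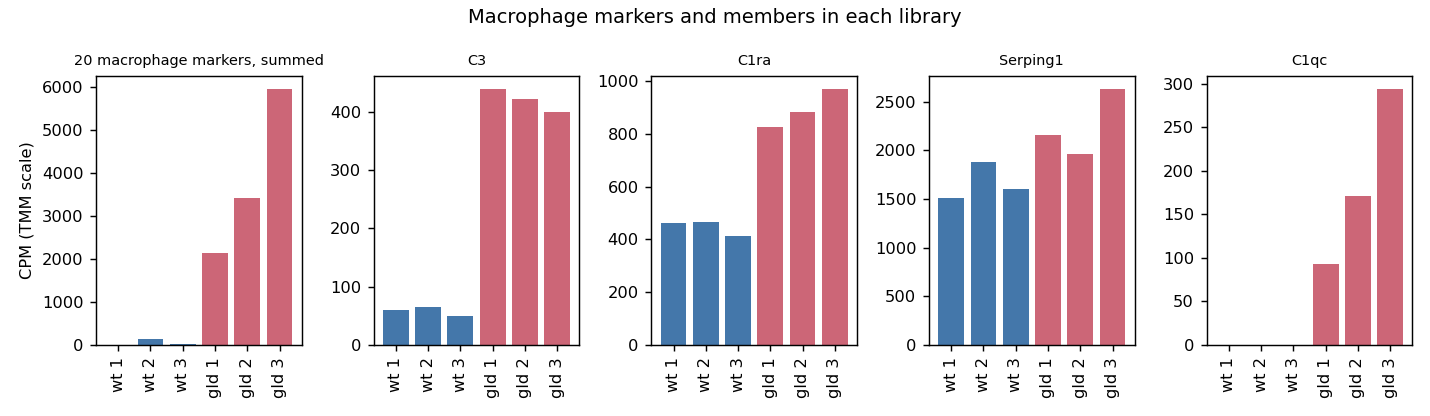
CPM on the TMM scale in each library of 20 macrophage markers summed, of C3, C1ra and Serping1, and of C1qc; bars are single libraries, blue wt and red gld. The marker sum, most of it Lyz2, lies between 2146 and 5960 CPM in the gld libraries, and C3 lies between 400 and 440 CPM there.

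Inflammatory cytokines are known to induce C3 and other complement genes, largely through C/EBP and NF-kB factors. Of 16 genes of such cytokines and their receptors, 8 were tested, none rose, 3 fell and 5 did not pass, with a median of −0.08. Among those with too few counts to test, and picked out once their values were known, the inflammatory cytokine genes Tnf and Osm were at 0 in wt and had 6, 17 and 86 and 4, 12 and 14 counts in the gld libraries. Their gld means were higher than the floor of 3 counts over the wt group by at least 22.4-fold for Tnf and 6.68-fold for Osm. Il1a, the gene of interleukin 1 alpha, was counted 27, 44 and 76 times in wt and never in gld, at least 70.3-fold lower (edgeR adjusted p = 8.55e-05). Osmr, the receptor gene for oncostatin M, fell by 0.61 ± 0.12 (SE, adjusted p = 0.00235), and Il6 fell by 1.34 ± 0.38 (edgeR adjusted p = 0.0222), a call lost without wt 1 (0.105), wt 2 (0.0659) or gld 2 (0.0787). Of 16 transcription factor genes, 5 were tested, none rose and 2 fell. These are Cebpb, which fell by 0.70 ± 0.12 (SE, edgeR adjusted p = 0.000951) from 539 ± 49.5 to 332 ± 29.97 CPM (SD, n = 3), and Cebpd, which fell by 0.48 ± 0.13 (edgeR adjusted p = 0.0158), a call lost without wt 3 (0.0837) or gld 3 (0.0611). Both encode C/EBP factors, whose motif is marked in the C3 and C1ra sequences above. Binding was not measured.

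Acute phase genes, a class that includes C3 and that inflammation raises in liver and connective tissue, went both ways. Of 19 others, 10 were tested, 5 rose, 1 fell and 4 did not pass, with a median of 0.56. Those 4, named once their values were known, were Hp at 0.22 ± 0.19, Cp at 0.07 ± 0.13, Serpina3n at 0.37 ± 0.25 and Saa3 at −0.74 ± 0.49 (SE, smallest edgeR adjusted p = 0.375). Hp was heavily counted, at 2067 ± 413 CPM in wt and 2408 ± 775 in gld (SD, n = 3). Lbp, the lipopolysaccharide-binding protein, rose by 3.35 ± 0.16 (SE, edgeR adjusted p = 3.59e-09). Its level went from 74.7 ± 9.58 to 757 ± 128 CPM (SD, n = 3). Il1rn, the interleukin 1 receptor antagonist, rose by 5.30 ± 0.45 (adjusted p = 8.93e-07). Steap4, a metalloreductase, rose by 1.08 ± 0.16 (adjusted p = 0.000171), and Cd14, the lipopolysaccharide co-receptor, fell by 1.56 ± 0.24 (edgeR adjusted p = 0.000234).

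Genes whose level closely followed that of C3 over the 6 libraries include Rflnb, Igf1, Ndrg1 and Col8a1. Likeness was the root mean square difference in log2 CPM after centring each gene on its mean, and it was 0.115 for Rflnb, a filamin-binding protein, 0.1501 for Igf1, a growth factor of bone, 0.157 for Ndrg1, and 0.167 for Col8a1, a chain of collagen VIII. Their log2 fold changes ran from 2.63 for Igf1 to 3.02 for Col8a1, on either side of that of C3. The measure mostly picks genes with a like difference between the groups.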

How the data were processed

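Per the labels' protocols, libraries were made from total RNA with a QuantSeq FWD kit, and per the series' design text single reads of 75 nt were trimmed with Cutadapt and aligned with STAR. The submitters' processing notes name mm10; which counter, strand setting and annotation release were used is not given in the sources used here, so overlapping and antisense genes are uncertain. The deposited table holds raw read counts per Ensembl gene for the 6 libraries; 1 row without identifier or counts was left out. Symbols matched 51883 of 57180 identifiers; positions and transcript ends are from GENCODE M21 (GRCm38).

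Genes passing filterByExpr (about 10 counts in 3 libraries, 15 in total) were scaled by TMM and tested with edgeR 4.0.16 (R 4.3.3, quasi-likelihood, Benjamini-Hochberg over all 8692 genes, adjusted p of 0.05), gld minus wt, with no covariate. Standard errors are the absolute log2 fold change over the square root of F. Floors are 3 counts over a group. Alternatives were DESeq2 1.42.0, limma-voom (limma 3.58.1), library size alone, no filter, a replicate block, leaving out each library and, chosen after seeing the data, TMM from genes with a single-transcript end. The main edgeR fit, DESeq2 and limma-voom were tested on simulated data, and the other alternatives were not. Replicates differed beyond counting noise (chi-square per degree of freedom 6.26 to 13.9).

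All members are named; from each other list up to 4 called genes by adjusted p, or up to 2 tested by level; likeness used genes of at least 10 CPM, and 1 gene it names is not reported here. Members and lists were chosen with earlier results of these data known.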

Additional observations from a re-analysis of the deposited data

How the results depend on the processing

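C3 and C1ra kept their direction and their call in all 12 alternatives. Without each library in turn, the log2 fold change ran from 2.76 to 2.96 for C3, from 0.92 to 1.03 for C1ra and from 0.29 to 0.53 for Serping1. Serping1 was called in 7 of 12 alternatives, and was 0.28 (adjusted p = 0.122) with library size alone. Without the low-count filter 5 members were called, C4b and Cfi being tested then, in a fit whose p-values are not comparable with the main fit. Without each library 2 to 4 were called. Those calls include C4b without gld 3 and Cfi without gld 2, which are not read as support. The 1515 called genes became 1695 with library size alone (720 higher, 975 lower, against 847 and 668), 1688 in DESeq2, 1471 in limma-voom, 1676 without the filter, 1510 with TMM from single-transcript ends, and 1224 to 1424 without each library. The replicate numbers do not pair the libraries (correlations of same-numbered deviations −0.023, −0.015 and −0.0227); with the replicate block 1359 genes were called (760 higher, 599 lower), and Serping1 was at 0.43 (adjusted p = 0.0418). None of C3, C1ra, Serping1 and the list genes named by the rule above reversed. Genes named outside that rule, such as Masp1, Lrp1 and those like C3, were not followed across the settings. The counts of C4b, C1s1, Cfi, Cfb and Cfd were too low for the main test; the cause was not tested.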
